A study of Mus musculus with 9 samples.

Results

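The 10 genes described here carry the signal from cell-surface receptors to NF-κB and to the interferon regulatory factors: the IκB kinase (IKK) genes Chuk, Ikbkb and Ikbkg, the IKK-related kinase genes Ikbke and Tbk1, the TRAF adaptor genes Traf1, Traf2 and Traf3, and the signalosome genes Malt1 and Bcl10. They were chosen by gene symbol, as 10 of the 54532 genes listed, and all 10 were among the 11585 genes that reached an FPKM of 1 in 3 of the 9 libraries and were tested. FPKM divides the reads of a gene by its length and by a library size, so levels of different genes are compared here per length.

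RNA sequencing was performed on RAW264.7 cells, a mouse macrophage line whose labelled tissue is ascites and whose labelled genotype is WT. The 3 control libraries came from untreated cells. The 3 LPS libraries came from cells given lipopolysaccharide (LPS), a cell-wall product of Gram-negative bacteria, at 1 μg/ml for 6 h. The 3 LPS + G-CDs libraries came from cells given the same LPS together with 400 μg/ml of G-CDs, carbon dots prepared from Glycyrrhiza (licorice). Group membership follows the sample titles, because the treatment label of the LPS + G-CDs libraries names only LPS. No group received G-CDs without LPS, all 3 groups are 1 cell line, and nothing in the labels says that the 3 libraries of a group were separate cultures, so p-values measure the spread between these libraries, which may be technical.

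The libraries held between 14752400 and 17312255 reads on genes, recovered from the FPKM values and gene lengths. The library size that the FPKM values imply was not this depth but 1.11 to 1.14 times it in control, 0.929 to 0.936 times in LPS and 0.88 to 0.98 times in LPS + G-CDs, so the deposited values carry a scaling that differs between groups, and TPM, which rescales each library to a common sum, is one of the alternatives. Of 8 macrophage markers 7 were tested, and the summed FPKM of all 8 was 2530 to 3450 in control, 3710 to 3910 in LPS and 3090 to 5090 in LPS + G-CDs, whereas Mrc1 stayed near 0. With LPS 4 markers were called higher and 2 lower: Cd14 carried the sum upward (mean FPKM 436 in control, 2290 in LPS), while Csf1r (451 and 202) and Lyz2 (1760 and 947) fell. The Lyz2 call held in 14 of 19 alternatives (lost without a filter and without control replicate 3 or any 1 of the LPS libraries), and that of Itgam, one of the 4, in 7 of 19. Itgam was lost without any 1 library other than control replicate 3. Cd68 was not called, and its control libraries ran from 86.8 to 418 FPKM. Summed FPKM did not exceed 0.0746 for 4 T cell markers, 0.52 for 3 B cell markers, 0.0325 for 3 fibroblast markers or 0.0574 for 4 epithelial markers. Cd3g, Cd8a, Ms4a1, Pdgfra, Epcam, Krt18 and Cdh1 were listed at 0 in every group. Replicates were tighter with LPS than in the other groups: the median SD of log2(FPKM + 1) over tested genes was 0.0867 in LPS, 0.244 in control and 0.259 in LPS + G-CDs.

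LPS is sensed by a Toll-like receptor, whose adaptors recruit TRAF proteins that build ubiquitin chains. These chains dock the IKK complex, made of the kinases IKKα (Chuk) and IKKβ (Ikbkb) and the scaffold NEMO (Ikbkg), which phosphorylates IκB proteins and so releases NF-κB. The related kinases IKKε (Ikbke) and TBK1 phosphorylate interferon regulatory factors, and MALT1 is a paracaspase that works with BCL10 as both a platform for IKK and a protease.

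Promoters are shown because 5 of the 10 genes rose with LPS and NF-κB dimers bind the κB motif. RefSeq promoters of build GRCm38.p6, each covering 250 bases before and 50 bases after a start site, were matched by symbol for 8 of the 10 genes and gave 11 promoters. Malt1 and Ikbkb were not matched. Both strands were searched for the κB motif and for an interferon-response type motif spelled GAAANNGAAA. The κB motif occurred in 2 of the 11 promoters, in Bcl10 and Traf3, and in 8.46% of all 32851 promoters of that length. The motif GAAANNGAAA occurred in 0 of the 11 and in 3.44% of all promoters, so no match overlapped one of the other motif. In Bcl10 the match lay at -241 to -232 from the start site and read as a κB motif on both strands, and in Traf3 it lay at -10 to -1 on the strand of the gene. The whole Bcl10 window, with its match, lies inside the gene as used for the FPKM, whose first base is 145922804. The promoters of Bcl10 and Traf3 and those of Traf1 and Ikbke, both among the strongest risers, are given in the 5′ to 3′ direction of the gene, with κB matches in capitals. The coordinates are chr3:145924012-145924311 on the plus strand, chr12:111166120-111166419 on the plus strand, chr2:34961723-34962022 on the minus strand and chr1:131279514-131279813 on the minus strand.
Bcl10 promoter: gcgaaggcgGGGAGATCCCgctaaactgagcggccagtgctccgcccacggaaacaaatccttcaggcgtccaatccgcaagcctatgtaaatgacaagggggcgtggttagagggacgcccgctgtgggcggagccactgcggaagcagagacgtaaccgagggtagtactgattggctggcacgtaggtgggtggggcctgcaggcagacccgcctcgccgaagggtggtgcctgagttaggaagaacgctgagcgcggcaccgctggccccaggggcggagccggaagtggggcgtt
Traf3 promoter: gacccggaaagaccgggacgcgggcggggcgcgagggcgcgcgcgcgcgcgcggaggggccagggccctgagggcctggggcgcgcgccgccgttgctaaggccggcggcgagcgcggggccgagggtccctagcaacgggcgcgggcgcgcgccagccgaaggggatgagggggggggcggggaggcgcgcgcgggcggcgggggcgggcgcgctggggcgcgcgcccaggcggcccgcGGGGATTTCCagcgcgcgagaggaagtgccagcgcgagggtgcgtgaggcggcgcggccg
Traf1 promoter: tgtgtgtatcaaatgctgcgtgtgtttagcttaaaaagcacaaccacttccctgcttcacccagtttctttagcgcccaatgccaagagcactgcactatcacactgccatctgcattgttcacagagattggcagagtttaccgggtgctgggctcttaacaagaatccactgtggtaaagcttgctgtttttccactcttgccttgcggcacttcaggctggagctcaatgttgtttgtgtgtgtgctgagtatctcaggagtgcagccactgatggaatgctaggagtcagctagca
Ikbke promoter: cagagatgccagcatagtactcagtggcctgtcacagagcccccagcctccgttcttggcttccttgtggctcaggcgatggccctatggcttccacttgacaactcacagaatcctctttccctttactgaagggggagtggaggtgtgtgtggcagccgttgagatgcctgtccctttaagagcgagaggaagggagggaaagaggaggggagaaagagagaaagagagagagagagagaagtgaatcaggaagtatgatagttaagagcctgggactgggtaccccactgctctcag
Of the genes with a match, Bcl10 rose with LPS and Traf3 did not pass the test, and the windows of Traf1 and Ikbke, which both rose, held no match to these letters.

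LPS raised 5 of the 10 genes: Traf1, Ikbke, Malt1, Bcl10 and Tbk1. Ratios of mean FPKM in LPS over control were 18.5 for Traf1, 11.4 for Ikbke, 10.6 for Malt1, 2.52 for Bcl10 and 1.72 for Tbk1. None of the 10 was called lower, and 0 were lower at an unadjusted limma p under 0.05, where 20.8% of all genes tested were lower. A gene was called at 0.05 on the p of limma after Benjamini-Hochberg adjustment over all 11585 genes. By this rule 15.8% of all genes tested were called higher with LPS. The median log2 fold change was 0.61 over the 10 genes and 0.016 over all genes tested. In 7 of the 10, all LPS libraries lay above all control libraries, as they did in 27.4% of all genes tested. In bulk RNA, more cells expressing a gene and more of its RNA per cell cannot be told apart.

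**Figure D1:**
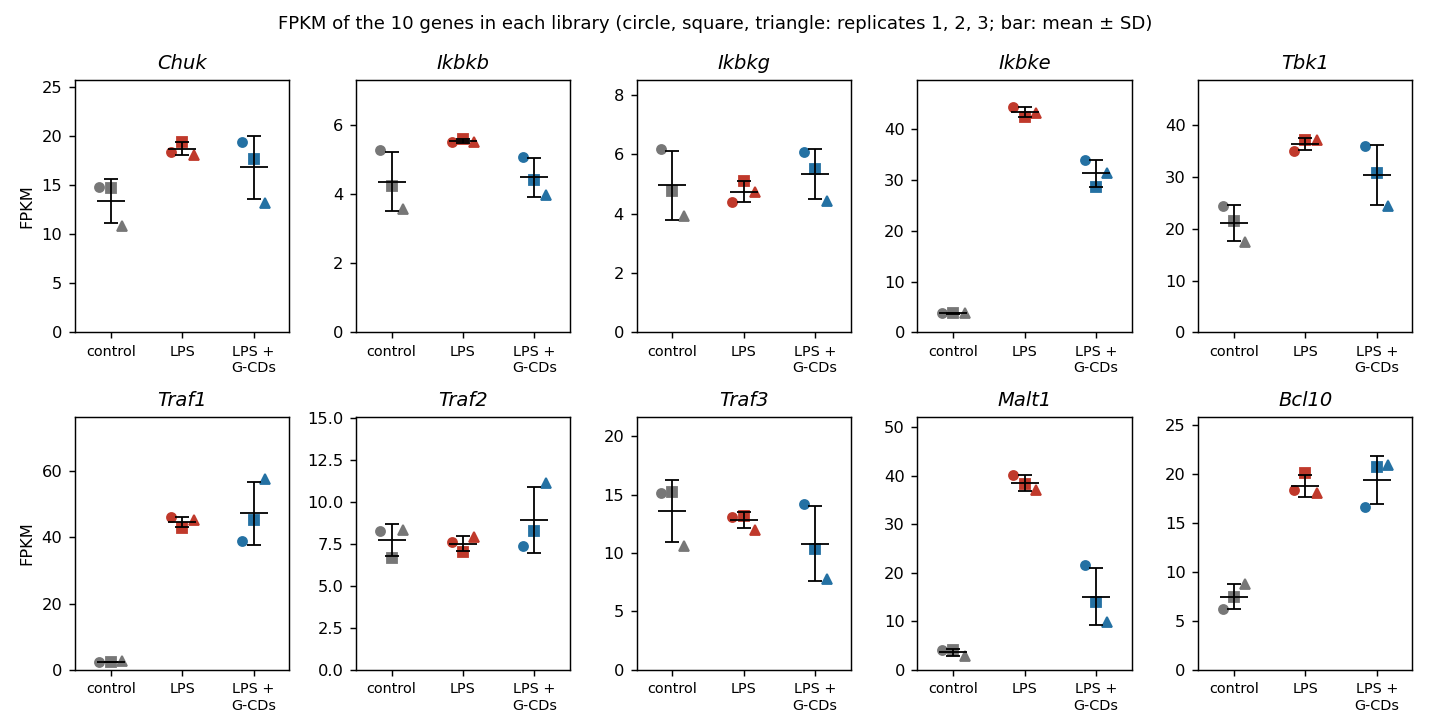
FPKM (y axis, linear from 0, own scale per panel) of each of the 10 genes in the 3 control, 3 LPS and 3 LPS + G-CDs libraries; circles, squares and triangles are replicates 1, 2 and 3, and bars give the mean ± SD of the group. Traf1 and Bcl10 sat at similar heights in both LPS groups, whereas Malt1 averaged 38.5 in LPS and 15.1 in LPS + G-CDs.

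Among the IKK genes, Ikbke (ENSMUSG00000042349; chr1:131254343-131279606, minus strand, GRCm38) had the largest response. It encodes IKKε, the inducible IKK-related kinase. Its FPKM was 3.74, 3.89 and 3.74 in control, 44.3, 42.4 and 43.1 in LPS, and 33.9, 28.6 and 31.4 in LPS + G-CDs. The 3 groups did not overlap: control was lowest, LPS highest, and LPS + G-CDs in between. With LPS it rose by 3.21 on the log2(FPKM + 1) scale (SE 0.10, 95% interval 2.97 to 3.44, adjusted p = 7e-08 by limma with Benjamini-Hochberg adjustment). Of its exon bases, 224 (2.48%) also belong to Gm28914 or Gm28913 on the opposite strand, and whether the counting used strand is not given in the sources used here.

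Tbk1 (ENSMUSG00000020115; chr10:121546455-121586787, minus strand) encodes the kinase most similar to IKKε and had the highest level of the 10 genes in control. Its FPKM was 24.4, 21.4 and 17.4 in control, 34.9, 37.0 and 37.1 in LPS, and 35.9, 30.7 and 24.3 in LPS + G-CDs. LPS libraries lay above all controls, and the LPS + G-CDs libraries overlapped both other groups. The rise with LPS was 0.77 on the log2 scale (SE 0.17, 95% interval 0.39 to 1.15, limma with Benjamini-Hochberg adjusted p = 0.008). With each library rescaled to a common sum (TPM) it was 0.52 and the adjusted p was 0.16, which ends the call.

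The genes of the IKK complex itself had smaller differences. Chuk (ENSMUSG00000025199; chr19:44073335-44107480, minus strand), encoding IKKα, read 14.8, 14.7 and 10.8 FPKM in control, 18.4, 19.4 and 18.1 in LPS, and 19.4, 17.7 and 13.2 in LPS + G-CDs. All LPS libraries were above all controls, but the log2 difference of 0.46 (95% interval 0.08 to 0.84) did not pass limma with Benjamini-Hochberg adjustment (adjusted p = 0.067). With the replicate number as a block, which pairs same-numbered libraries, the limma adjusted p was 0.028. It was also 0.028 without LPS + G-CDs replicate 3, a library outside this comparison. The difference then stayed at 0.46 and the SE went from 0.17 to 0.13. Chuk was called in 4 of 19 alternative analyses. Ikbkb (ENSMUSG00000031537; chr8:22659212-22706589, minus strand), encoding IKKβ, read 5.26, 4.22 and 3.57 FPKM in control, 5.50, 5.59 and 5.49 in LPS, and 5.08, 4.4 and 3.96 in LPS + G-CDs. LPS libraries stood above both other groups without overlap. The log2 difference of LPS from control was 0.30 (95% interval -0.017 to 0.62) with a limma adjusted p of 0.14. Without control replicate 1 it was 0.42 with an adjusted p of 0.041, and after correction for gene length it was -0.017. Ikbkg (ENSMUSG00000004221; chrX:74393290-74453854, plus strand), encoding the scaffold NEMO, read 6.20, 4.78 and 3.91 FPKM in control, 4.41, 5.11 and 4.73 in LPS, and 6.09, 5.52 and 4.44 in LPS + G-CDs. All 3 groups overlapped, and the log2 difference of LPS from control was -0.036 (adjusted p = 0.89, limma with Benjamini-Hochberg adjustment). Of the Ikbkg exon bases, 418 (5.15%) are shared with G6pdx on the opposite strand.

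The TRAF genes were split. Traf1 (ENSMUSG00000026875; chr2:34941750-34961772, minus strand) encodes an adaptor that lacks the RING domain of other TRAF proteins and binds TRAF2. Its FPKM was 2.39, 2.38 and 2.49 in control, 46.0, 42.9 and 45.2 in LPS, and 39.0, 45.2 and 57.5 in LPS + G-CDs. Traf1 was the lowest of the 10 genes in control and had the highest mean in both LPS groups, which overlapped each other. The rise with LPS was 3.74 on the log2 scale (SE 0.14, 95% interval 3.42 to 4.06, limma adjusted p = 2.1e-07).

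Traf2 and Traf3, whose products together hold the kinase NIK at a low level in resting cells, did not pass the test with LPS. Traf2 (ENSMUSG00000026942; chr2:25517982-25546940, minus strand) read 8.26, 6.63 and 8.32 FPKM in control, 7.62, 7.03 and 7.89 in LPS, and 7.34, 8.23 and 11.1 in LPS + G-CDs. The LPS libraries lay within the range of the control libraries, with a log2 difference of -0.033 (95% interval -0.39 to 0.32, limma adjusted p = 0.89). Traf3 (ENSMUSG00000021277; chr12:111166370-111267153, plus strand) read 15.1, 15.2 and 10.6 FPKM in control, 13.1, 13.2 and 12 in LPS, and 14.2, 10.3 and 7.80 in LPS + G-CDs. Its LPS libraries also lay within the control range, and the log2 difference was -0.073 (95% interval -0.55 to 0.40, limma adjusted p = 0.82).

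Both signalosome genes rose with LPS. Malt1 (ENSMUSG00000032688; chr18:65430962-65478823, plus strand) encodes the paracaspase. Its FPKM was 4.07, 4.03 and 2.81 in control, 40.2, 38.2 and 37.0 in LPS, and 21.6, 13.9 and 9.92 in LPS + G-CDs. No library of one group overlapped another group. The rise with LPS was 3.10 on the log2 scale (SE 0.24, 95% interval 2.55 to 3.65, limma adjusted p = 1.9e-05). Bcl10 (ENSMUSG00000028191; chr3:145922804-145934356, plus strand) encodes the partner that forms filaments with MALT1. Bcl10 read 6.17, 7.42 and 8.75 FPKM in control, 18.4, 20.1 and 18.0 in LPS, and 16.6, 20.7 and 20.9 in LPS + G-CDs. Both LPS groups lay above control and overlapped each other. It rose by 1.24 on the log2 scale with LPS (SE 0.15, 95% interval 0.91 to 1.57, limma adjusted p = 0.00026).

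**Figure D2:**
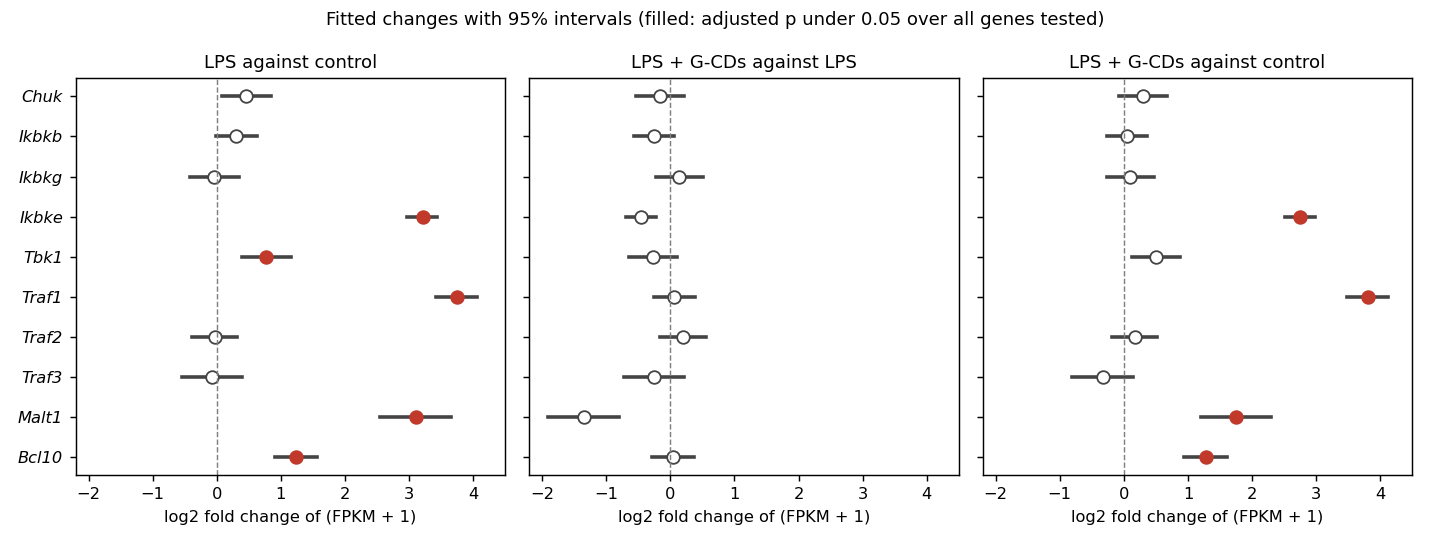
Log2 fold change of FPKM + 1 (x axis) for each of the 10 genes in the 3 comparisons, with 95% intervals from limma over all 9 libraries; filled circles mark genes called at 0.05 after adjustment. Filled circles number 5 for LPS against control, 0 for LPS + G-CDs against LPS and 4 for LPS + G-CDs against control.

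The order of levels per length differed between groups. In control, Tbk1 (mean FPKM 21.1 ± 3.49 SD, n = 3) stood above Traf3 (13.6 ± 2.63) and Chuk (13.4 ± 2.25), whose libraries overlapped. Then came Traf2 (7.74 ± 0.958), Bcl10 (7.45 ± 1.29), Ikbkg (4.96 ± 1.16), Ikbkb (4.35 ± 0.854), Ikbke (3.79 ± 0.0858) and Malt1 (3.64 ± 0.717), each overlapping the next, and Traf1 (2.42 ± 0.0607) was separate at the bottom. In LPS the top was Traf1 (44.7 ± 1.57) and Ikbke (43.3 ± 0.953), which overlapped, then Malt1 (38.5 ± 1.62) and Tbk1 (36.3 ± 1.22), which also overlapped. Bcl10 (18.8 ± 1.11) and Chuk (18.7 ± 0.676) overlapped next, and Traf3 (12.8 ± 0.671), Traf2 (7.51 ± 0.44), Ikbkb (5.53 ± 0.0532) and Ikbkg (4.75 ± 0.351) followed as separate levels. In LPS + G-CDs Traf1 (47.2 ± 9.41) stood alone at the top, followed by Ikbke (31.3 ± 2.69) and Tbk1 (30.3 ± 5.80), which overlapped. Bcl10 (19.4 ± 2.45), Chuk (16.8 ± 3.17), Malt1 (15.1 ± 5.95), Traf3 (10.8 ± 3.22) and Traf2 (8.89 ± 1.97) formed a chain of overlapping neighbours, above Ikbkg (5.35 ± 0.837) and Ikbkb (4.48 ± 0.563). Malt1 thus went from the third place in LPS to the sixth in LPS + G-CDs.

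The study asked what G-CDs do to the LPS response, which is read from LPS + G-CDs against LPS. Of the 10 genes, Malt1 had the largest difference and stood at 39.4% of its LPS mean, and Ikbke stood at 72.4%. Traf1 and Bcl10, which LPS had raised, stood at 106% and 103% of their LPS means, and Tbk1 at 83.3%. None of the 10 genes passed limma with Benjamini-Hochberg adjustment, and 0.492% of all genes tested did in either direction. By voom on the recovered reads 0 of the 10 passed, and at an unadjusted limma p under 0.05 there were 2, Malt1 and Ikbke, both lower, where 8.04% of all genes tested were lower at that threshold. By the threshold the study states for this comparison, p under 0.01 and more than 1.5-fold, taken here as an unadjusted p, Malt1 was the 1 gene of the 10 that counted as lower, against 1.24% of all genes tested. Malt1, Ikbke and Ikbkb had all LPS + G-CDs libraries below all LPS libraries, as 15.0% of all genes tested did. The median log2 difference was -0.21 over the 10 genes and 0.017 over all genes tested, with 6 of the 10 below 0.

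For Malt1, the LPS + G-CDs libraries lay 0.80, 1.41 and 1.85 log2 units below the LPS mean in replicates 1, 2 and 3. The fitted difference was -1.35 on the log2 scale (SE 0.24, 95% interval -1.90 to -0.80), with an unadjusted limma p of 0.00036 and a Benjamini-Hochberg adjusted p of 0.066. It was called in 3 of 19 alternative analyses, and over all of them the difference ran from -1.63 to -1.05 and the adjusted p from 0.0047 to 0.30. Without LPS + G-CDs replicate 1, the library nearest to LPS, the difference was -1.63 with an adjusted p of 0.011. With the replicate number as a block it was -1.35 with a limma adjusted p of 0.032. Long genes varied in the same order between the LPS + G-CDs replicates, though not in the other 2 groups. Over the 804 tested genes within 1.25-fold of Malt1 in length, the median deviation from the group mean was 0.298, -0.0134 and -0.288 on the log2 scale in LPS + G-CDs replicates 1, 2 and 3. It was between -0.0328 and 0.0202 in LPS, and 0.123, 0.139 and -0.253 in control. After each library was corrected for a trend with gene length, the Malt1 difference was -1.05 with a limma adjusted p of 0.0047.

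Ikbke was the other gene of the 10 with an interval that left out 0. Its LPS + G-CDs libraries lay 0.34, 0.58 and 0.45 log2 units below the LPS mean, and the fitted difference was -0.46 (SE 0.10, 95% interval -0.69 to -0.22, limma adjusted p = 0.14). This is 1.37-fold and so below the fold that the study asked for. It was called in 0 of 19 alternative analyses, with adjusted p between 0.051 and 0.49, and after the correction for gene length the difference was -0.24.

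**Figure D3:**
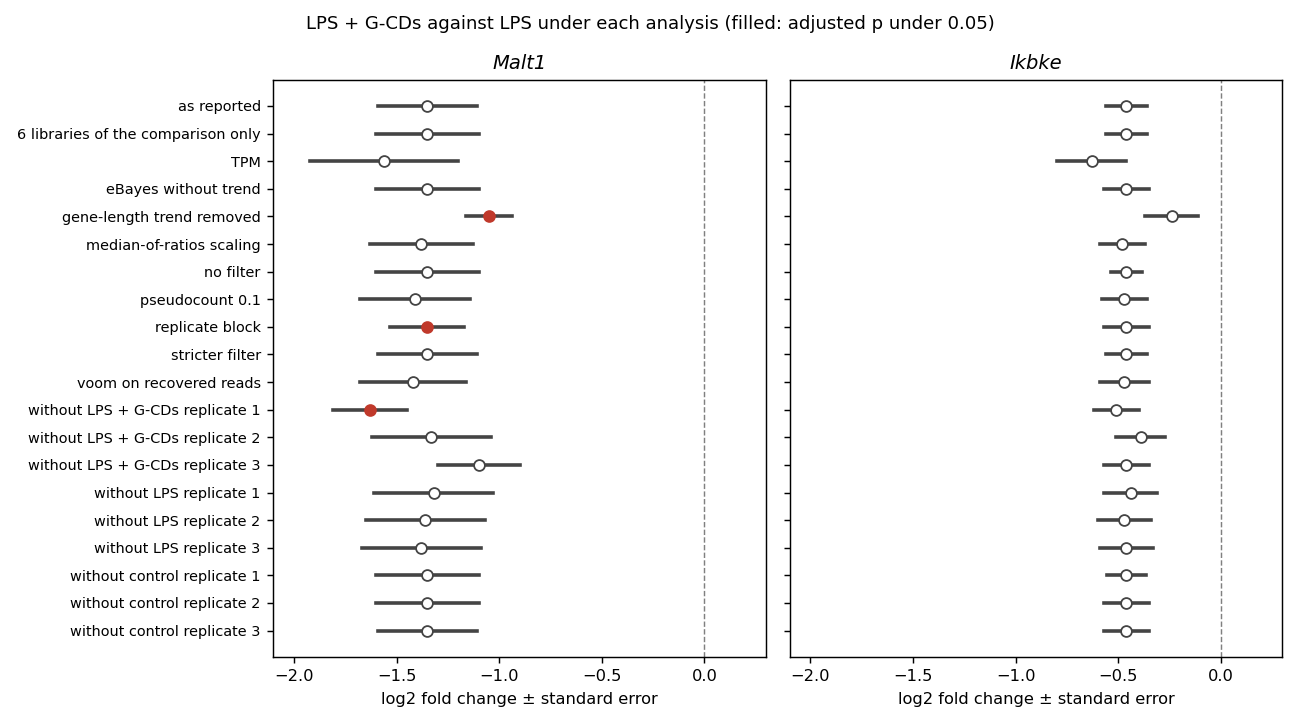
Log2 fold change of LPS + G-CDs against LPS (x axis, circle) ± standard error (line) for Malt1 and Ikbke in the analysis as reported and in 19 alternatives; filled circles mark calls at 0.05 after adjustment. All values lie below 0, between -1.63 and -1.05 for Malt1 and between -0.63 and -0.24 for Ikbke.

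For the remaining 8 genes the intervals of LPS + G-CDs against LPS included 0. Traf1 differed by 0.061 (95% interval -0.26 to 0.38) and Bcl10 by 0.037 (-0.29 to 0.37), both close to their LPS level with intervals on either side of it. Tbk1 differed by -0.27 (-0.65 to 0.11), Chuk by -0.16 (-0.54 to 0.22) and Ikbkb by -0.26 (-0.57 to 0.059). After the correction for gene length the Ikbkb difference was 0.19, the opposite sign, although its libraries did not overlap. Ikbkg differed by 0.14 (-0.23 to 0.51), Traf2 by 0.20 (-0.16 to 0.55) and Traf3 by -0.26 (-0.73 to 0.21). Adjusted p for these 8 genes ranged from 0.35 to 0.89 by limma with Benjamini-Hochberg adjustment.

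The 3 LPS + G-CDs libraries were not alike for these genes. Chuk, Ikbkb, Ikbkg, Tbk1, Traf3 and Malt1, 6 of the 10, were highest in replicate 1 and lowest in replicate 3, whereas Traf1, Traf2 and Bcl10 were lowest in replicate 1 and highest in replicate 3. Over all genes tested, 35.1% had the first pattern and 39.7% the second. The distance from the LPS mean in replicate 3 was -0.56 for Tbk1, -0.64 for Traf3 and -0.46 for Chuk, against 0.36 for Traf1 and 0.51 for Traf2, on the log2 scale.

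**Figure D4:**
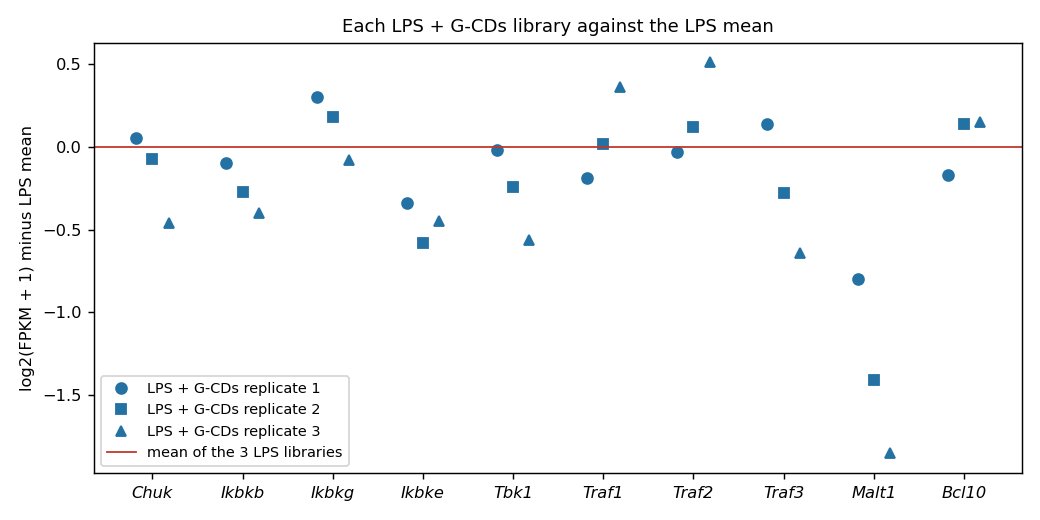
Log2(FPKM + 1) of each LPS + G-CDs library minus the mean of the 3 LPS libraries (y axis, red line at 0) for the 10 genes; circles, squares and triangles are replicates 1, 2 and 3. Malt1 lies lowest in each library, at -0.80, -1.41 and -1.85, and Ikbke lies below 0 in all 3.

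With LPS + G-CDs against control, a comparison that shares libraries with both others, 4 of the 10 genes were called higher and 0 lower by limma with Benjamini-Hochberg adjustment, against 12.8% of all genes tested called higher. These were Traf1 with a log2 difference of 3.80 (adjusted p = 2.2e-07), Ikbke with 2.75 (2.2e-07), Malt1 with 1.75 (0.00081) and Bcl10 with 1.28 (0.00026). Malt1 therefore remained above control in LPS + G-CDs, with a ratio of mean FPKM of 4.17 where LPS alone gave 10.6. Tbk1 was 0.50 above control (95% interval 0.12 to 0.88, limma adjusted p = 0.06). Without control replicate 1 the Tbk1 difference was 0.61 with an adjusted p of 0.042, and without LPS + G-CDs replicate 3 it was 0.64 with 0.018. On the TPM scale it was 0.079 with an adjusted p of 0.84, and it was 0.37 both without control replicate 3 (adjusted p = 0.15, limma) and without LPS + G-CDs replicate 1 (0.13). Chuk, Ikbkb, Ikbkg, Traf2 and Traf3 differed from control by between -0.33 and 0.30, with limma adjusted p from 0.24 to 0.86.

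Around these genes, 8 lists of 43 pathway genes were described, of which 41 genes were tested. With LPS 21 were called higher and 3 lower, where 15.8% of all genes tested were higher and 15.6% lower, and with LPS + G-CDs against LPS 0 were called higher and 1 lower, where 0.492% of all genes tested were called in either direction (limma with Benjamini-Hochberg adjustment over all genes tested). At an unadjusted limma p under 0.05 the latter comparison gave 2 higher and 9 lower of the 41, where 7.19% of all genes tested were higher and 8.04% lower, and voom on the recovered reads called 0. Against control, LPS + G-CDs gave 17 higher and 1 lower, where 12.8% of all genes tested were higher and 12.4% lower. Median log2 fold changes over the 41 were 0.46 with LPS, -0.067 for LPS + G-CDs against LPS and 0.39 for LPS + G-CDs against control. The lists were drawn up with earlier results of these data known, so their counts are a description.

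In the lists of other TRAF genes, the TAK1 complex and the ubiquitin machinery, 1 gene was called higher and 3 lower with LPS, where 15.8% and 15.6% of all genes tested were. Of the 4 other TRAF genes, Traf4 fell by 0.51 on the log2 scale (limma adjusted p = 0.036) and Traf5, Traf6 and Traf7 did not pass; Traf6 encodes the ubiquitin ligase of the Toll-like receptor route. The Traf4 call was lost in 8 of the 18 alternatives it could be tested in, including those without any 1 of the control libraries, LPS replicate 1 or 2, or LPS + G-CDs replicate 2. In the TAK1 kinase complex, which activates IKKβ, Tab2 rose by 0.90 (adjusted p = 0.0097), Tab1 fell by 0.71 (adjusted p = 0.004), and 2 of 4 genes did not pass. The Tab2 call was lost on the TPM scale (adjusted p = 0.14). Of 6 tested genes of the ubiquitin machinery, Rbck1, a subunit of the linear chain ligase, fell by 0.48 (adjusted p = 0.029) and 5 did not pass; the Rbck1 call was lost in 6 alternatives, each leaving out 1 library (control replicate 1 or 3, any LPS library, or LPS + G-CDs replicate 2).

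In the list of NIK and the IAP ligases, which also act upstream of IKK, and in the lists of partners and targets of the kinases, genes were called higher and none lower with LPS, beside 15.8% higher and 15.6% lower among all genes tested. Of 4 genes for NIK and the IAP ubiquitin ligases 3 rose with LPS, led by Birc3 (2.46, adjusted p = 3.5e-06) and Xiap (1.2, adjusted p = 0.011; 0.084 on the TPM scale). The call of the other of the 3, Birc2, was also lost on the TPM scale. Of 5 tested adaptors of TBK1 and IKKε 4 rose, led by Tank (1.5, adjusted p = 0.00032) and Azi2 (0.88, adjusted p = 0.0008). Among those 4, Tbkbp1 was called in 14 of 19 alternatives (lost on the TPM scale and without control replicate 2 or 3 or LPS replicate 1 or 3) and Tax1bp1 in 17 (lost on the TPM scale and after the correction for gene length). Of 3 chaperone genes, Hsp90aa1 rose by 0.66 (adjusted p = 0.006; 0.074 on the TPM scale). Of 9 IKK and TBK1 substrates 7 rose, led by Irf7 (4.25, adjusted p = 7.2e-07) and Nfkbia (3.17, adjusted p = 5.5e-07), the latter encoding IκBα. Rela was called in 13 of 19 alternatives, being lost on the TPM scale and without control replicate 2, any 1 of the LPS libraries or LPS + G-CDs replicate 2. All adjusted p are from limma with Benjamini-Hochberg adjustment.

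Of 6 genes whose proteins MALT1 cleaves, 5 rose with LPS (15.8% of all genes tested did), led by Zc3h12a (3.57, adjusted p = 3.3e-07), encoding the RNase Regnase, and Tnfaip3 (3.56, adjusted p = 1.3e-06), encoding a ubiquitin-editing brake on NF-κB. N4bp1, also among the 5, was called in 13 of 19 alternatives, being lost on the TPM scale, after the correction for gene length, and without control replicate 3 or any 1 of the LPS libraries. The call of Relb was lost without LPS replicate 3 and that of Rc3h1 on the TPM scale. Tnfaip3 FPKM was 3.37, 2.95 and 2.04 in control, 44.2, 43.6 and 41.5 in LPS, and 23.8, 20.2 and 15.6 in LPS + G-CDs. As with Malt1, the 3 groups did not overlap and LPS + G-CDs lay in between. This order was not particular to them: Ikbke, Birc3, Tank, Azi2, Zc3h12a and Nfkbia, among others, had it too. Its share over all genes tested was not counted. Tnfaip3 fell by 1.1 on the log2 scale in LPS + G-CDs against LPS (limma adjusted p = 0.043), the 1 pathway gene called there, beside 0.492% of all genes tested called in either direction. It was called in 8 of 19 alternatives. The call was lost with a pseudocount of 0.1, without a filter, on the TPM scale, with the 6 libraries alone and with voom, as well as without control replicate 2, without any 1 of the LPS libraries, and without LPS + G-CDs replicate 2 or 3, with adjusted p up to 0.24. The value for Malt1 in the same comparison was -1.35 with an adjusted p of 0.066.

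**Figure D5:**
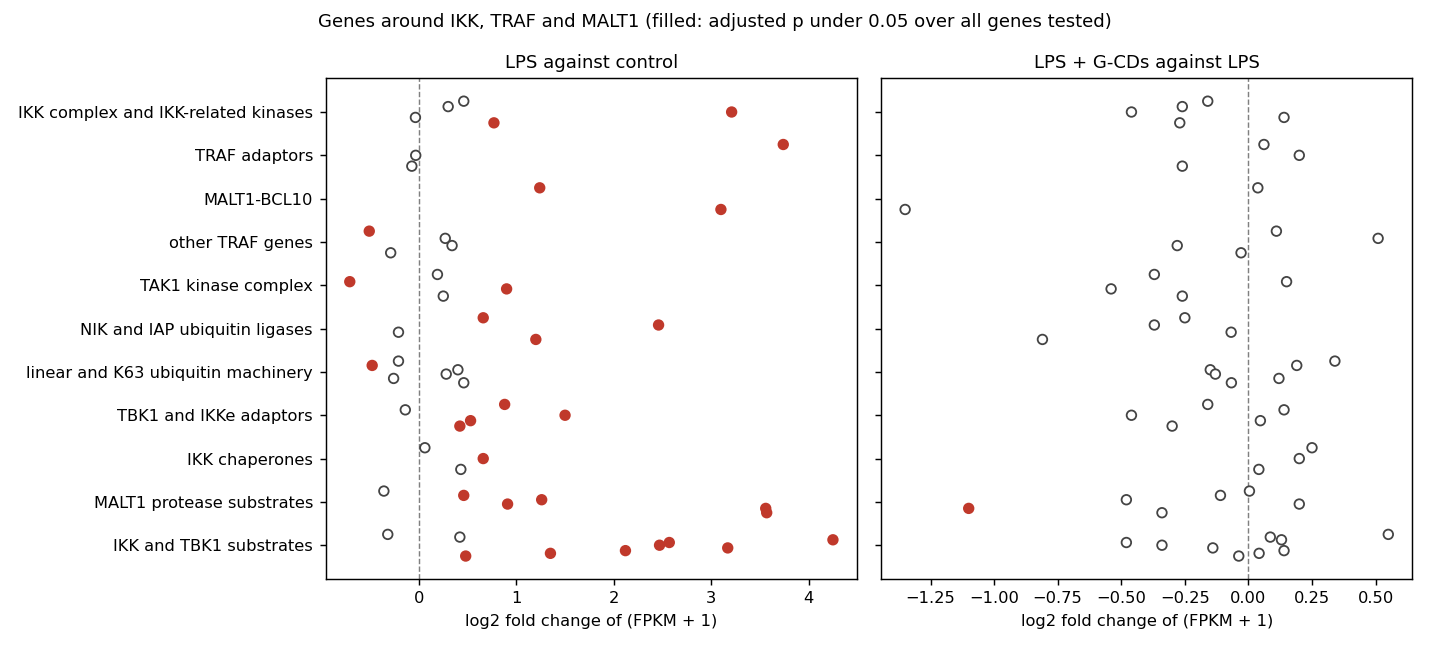
Log2 fold change of FPKM + 1 (x axis, own scale per panel) of each tested gene in the groups of genes named on the y axis, for LPS against control and LPS + G-CDs against LPS; filled circles mark genes called at 0.05 after adjustment. In the right panel Tnfaip3 at -1.1 is the filled circle, and the lowest circle is Malt1 at -1.35.

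Genes with the most similar profiles were sought for Traf1, Ikbke and Malt1, the 3 genes of the 10 with the largest LPS response, by the mean absolute difference of centred log2(FPKM + 1) over the 9 libraries. Nearest to Traf1 were Plaur (0.064), Ifit3 (0.098) and Osm (0.117). Nearest to Ikbke were AC133103.1 (0.080), C3ar1 (0.087) and Itga5 (0.097). Nearest to Malt1 were Calcrl (0.127), Arhgef3 (0.161) and Siglec1 (0.164). Ifit3, C3ar1 and Siglec1 had control means of 0.412, 0.911 and 0.663 FPKM, where the added 1 makes the response look smaller. Their likeness therefore holds on this scale and not for ratios of FPKM. Calcrl, a receptor gene, had mean FPKM of 5.73 ± 1.3 in control, 64.5 ± 5.31 in LPS and 27.1 ± 9.73 in LPS + G-CDs (SD, n = 3), and Plaur, encoding the urokinase receptor, had 19.3 ± 1.98, 265 ± 17.7 and 283 ± 43.5.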

How the data were processed

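RNA sequencing of 9 RAW264.7 libraries, 3 per group, was taken as 1 deposited table of FPKM per gene and library. Per the labels, mRNA was poly-A selected and cDNA was made with random hexamers. The submitters' processing notes name the build GRCm38 (mm10), and the aligner, the counter and the use of strand are not given in the sources used here. How the authors scaled the FPKM was read from the values: FPKM times gene length gave whole reads for 100% of values (within 0.05 reads), with a library size of 0.88 to 1.14 times the reads on genes, a scaling that is not stated in the sources used here.

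From the deposited FPKM, log2(FPKM + 1) was fitted with limma 3.58.1 (R 4.3.3) in 1 model of all 9 libraries, with a mean-variance trend and two-sided tests. Genes were tested when 3 or more libraries had an FPKM of 1 or more, and called at a Benjamini-Hochberg adjusted p under 0.05. Because 1 was added before the logarithm, fold changes of weakly expressed genes come out too small. The script was tested on simulated data. Tables were made with Python 3.11.15 and pandas 2.3.3.

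The 10 genes and the lists were chosen with earlier results of these data known, and 1 further list is not reported here. Named genes are the 10, each list's genes called in LPS + G-CDs against LPS, its 2 largest LPS changes among called genes, and the 3 genes nearest in profile to each of the 3 members with the largest LPS change. Other genes of the lists, and the markers, were named to account for a count and chosen after their values were seen.

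Pairing by replicate number was checked by correlating deviations from group means: same-numbered control and LPS libraries had r of 0.103, 0.137 and 0.113, all over the limit of 0.1. Control replicate 2 and LPS + G-CDs replicate 1, which differ in number, had r of 0.504, so this limit cannot establish pairing. The labels do not say what a number marks. The analysis as reported therefore has no block, and the replicate block is an alternative. Alternatives were a pseudocount of 0.1, no filter, a minimum FPKM of 5, TPM, median-of-ratios scaling, the 6 libraries of a comparison, no trend, voom on recovered reads, a replicate block, removal of a gene-length trend, and leaving out each library.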

Additional observations from a re-analysis of the deposited data

How the results depend on the processing

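Libraries held 14752400 reads or more, none of the 10 genes had under 357 reads in a library, and each group had 3 libraries. Over the 3 comparisons and 19 alternatives, the 10 genes gave 570 values: 536 kept direction and side of the threshold, 11 passed it newly, 1 lost it (Tbk1 with LPS on the TPM scale) and 22 changed sign, all in differences that were not called. The cause of these changes was not tested, except that fewer libraries or genes were fitted where the setting says so. Leaving out a library outside a comparison left its log2 difference as it was, and only the estimate of the spread shared by all groups changed.

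On the TPM scale the median log2 change of all genes was -0.23 for LPS against control (0.016 as reported), -0.14 for LPS + G-CDs against LPS (0.017) and -0.38 for LPS + G-CDs against control (0.025), so changes on that scale are relative to these shifts. Calls then split into 1003 higher and 3059 lower with LPS, where the analysis as reported had 1827 and 1803, and into 761 and 3218 for LPS + G-CDs against control, where it had 1488 and 1439. On the TPM scale, LPS + G-CDs against LPS was -0.003 for Ikbkg, -0.11 for Traf1 and -0.13 for Bcl10, and LPS + G-CDs against control was -0.12 for Chuk, -0.36 for Ikbkb, -0.30 for Ikbkg and -0.24 for Traf2. With the gene-length trend removed, Ikbkb was -0.017 with LPS and 0.19 for LPS + G-CDs against LPS.

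Leaving out 1 library gave ranges with both signs for LPS against control in Ikbkg (-0.17 to 0.11), Traf2 (-0.13 to 0.017) and Traf3 (-0.23 to 0.009). For LPS + G-CDs against LPS this held in Traf1 (-0.087 to 0.19) and Bcl10 (-0.018 to 0.14), and for LPS + G-CDs against control in Ikbkb (-0.066 to 0.16) and Ikbkg (-0.031 to 0.25).

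For LPS + G-CDs against LPS, 57 genes were called as reported, 25 with a pseudocount of 0.1, 27 with TPM, 25 with the 6 libraries alone, 89 with the gene-length trend removed and 45 with voom on recovered reads. The rule the study states, applied here to the unadjusted limma p, gave 288, which is not the study's own count. Leaving out 1 library gave 11 to 256: 23 without control replicate 2, 14, 12 and 21 without LPS replicates 1, 2 and 3, and 256, 11 and 29 without LPS + G-CDs replicates 1, 2 and 3. Of the 10 genes, 0 were called as reported and 1, Malt1, with the replicate block, with the gene-length trend removed and by the rule the study states, with 0 to 1 when 1 library was left out (1 without LPS + G-CDs replicate 1). For LPS + G-CDs against control, 2927 genes were called as reported, 1789 with the 6 libraries alone and 1914 to 3245 when 1 library was left out (1914 without LPS + G-CDs replicate 2). For LPS against control 3716 were called with voom, where 3630 were called as reported.

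Same-numbered LPS and LPS + G-CDs libraries had r of 0.095, 0.0801 and 0.143, and control and LPS + G-CDs libraries 0.28, 0.0575 and 0.653. Not every pair passed 0.1, so there the samples share only a number. Each LPS and LPS + G-CDs library correlated best with its own number, which control replicate 2 did not against LPS + G-CDs, a hint from the data and not from the design. With the replicate block, 4104 genes were called for LPS against control and 53 for LPS + G-CDs against LPS. The block changed the call of Chuk with LPS, of Malt1 for LPS + G-CDs against LPS (adjusted p = 0.032, limma) and of Tbk1 for LPS + G-CDs against control (adjusted p = 0.037, limma), and no other call among the 10 genes.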
